A study of Drosophila melanogaster with 2 samples.

Results

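The 36 genes described here drive and monitor the cell division cycle of Drosophila melanogaster, and were taken as a list of names: cyclins, cyclin-dependent kinases and their regulators, the E2F and retinoblastoma family, mitotic kinases, spindle and DNA damage checkpoint genes, and replication genes. All 36 names were found in the Ensembl gene models, out of 13945 protein-coding genes on the 6 major chromosome arms. Chromatin immunoprecipitation and sequencing (ChIP-seq) had been performed with an anti-GFP antibody on whole embryos of both sexes, aged 0 to 16 hours, from a transgenic line that makes the CG11723 protein with GFP fused to its C-terminus. CG11723 is a fly protein known by its gene number. The 2 samples form 1 group, and the labels number them as biological replicates 1 and 3, so no comparison between groups was possible. Both come from 1 line according to the labels, and a whole embryo pools tissues that divide and tissues that have stopped, so a region cannot be assigned to a cell type or to a phase of the cycle.

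Cyclins switch on cyclin-dependent kinases, which start DNA replication and mitosis, and the activity of these kinases is held in check by inhibitory phosphorylation, by inhibitor proteins and by destruction of the cyclins. Activating E2F factors switch on genes of the replication machinery, and retinoblastoma proteins can bind and restrain these factors. Early fly embryos divide on maternal products in rapid cycles of replication and mitosis, and later divisions depend on new transcription of string (stg), the phosphatase that activates Cdk1. Many fly genes for DNA replication carry in their promoters the DRE, a sequence bound by the factor Dref.

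The authors deposited lists of regions on the dm6 genome build, each with a summit and a signal, the peak caller's measure of enrichment, whose scale is not stated. Signal is used below to describe and rank regions within 1 list, rank 1 being the highest. The lists were called on replicate 1, on replicate 3 and on both pooled, and each holds 30000 regions, weak ones included. The final list, reduced by the irreproducible discovery rate (IDR), holds 3869 regions with signals from 88.8 to 1646 and a median of 144. Every one of its regions is among the 3869 of highest signal in the pooled list. The number of reads behind a region is not part of the lists, so the depth of each sample is unknown. A region was assigned to a gene when its summit lay in the gene body or within 500 bp of one of the gene's transcription start sites (TSSs), and a summit within 500 bp of a TSS was called a promoter summit. The position of a region relative to a TSS is that of its summit, and the region itself can extend over the TSS.

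Of the 36 cell cycle genes, 16 carried at least 1 IDR region (44.4%), where 19.2% of all coding genes did. They were CycB3, CycE, CycG, Cdk1, Cdk4, E2f1, Dp, Rbf2, aurA, BubR1, Bub3, grp, lok, mei-41, dup and Mcm2. Promoter summits of the IDR list were present at 13 of the 36 (36.1%), against 15.0% of coding genes. The difference from all coding genes was smaller among genes that had a region of any rank in the pooled list. Of the 29 members with such a region, 16 (55.2%) had an IDR region, against 45.3% of coding genes with a pooled region. At start sites the corresponding shares were 13 of 29 (44.8%) and 40.3%. Regions of any rank were present at 29 members in the pooled list (80.6%, against 42.5% of coding genes), at 26 in replicate 1 (72.2%, against 43.9%) and at 29 in replicate 3 (80.6%, against 53.4%). No test was made of these shares, because the genes were chosen as a list and no control sample was analysed here. That list was chosen with earlier results of these data known, and the part of this choice in the shares was not tested.

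Gene length moved with the count. The members had a median length of 3120 bp and coding genes one of 2166 bp. Among coding genes the share with an IDR region rose from 6.21% in the shortest length quartile to 12.5%, 19.0% and 39.3% in the next ones, which are divided at 1179, 2166 and 4998 bp. In the same order the members had 0 of 2, 3 of 6, 5 of 18 and 8 of 10. The part of gene length in the members' share was not tested.

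**Figure D1:**
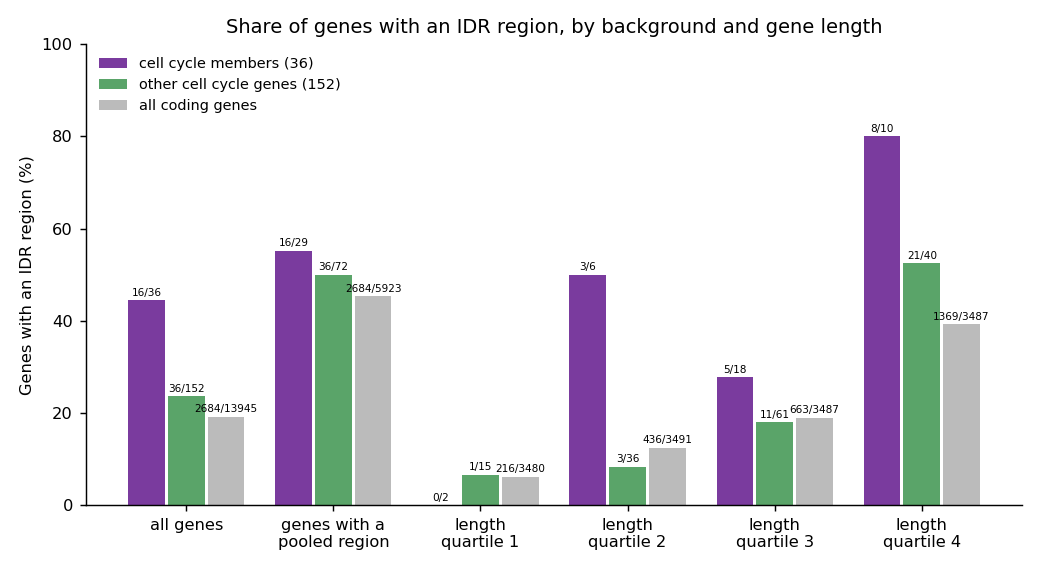
Percent of genes with an IDR region (bars from 0, with the counts above them) for the 36 members, for 152 other cell cycle genes and for all coding genes, over all genes, over genes with a pooled region of any rank, and by quartile of gene length. The members stood at 44.4% over all genes, but at 55.2% against 45.3% of coding genes where a pooled region was required.

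At 3 members, 1 region had its summit within 500 bp of the start sites of a pair of divergent cell cycle genes, and these sequences are shown first for that reason. The region 3R:8264838-8264971 lay 94 bp upstream of the TSS of Mcm2, a subunit of the replicative helicase, and 425 bp from that of RPA1, the large subunit of the single-stranded DNA binding protein of replication forks. The region 3R:29675322-29675761 had its summit between the TSSs of Bub3, a spindle checkpoint protein, and Cap-D2, a condensin subunit, 121 and 109 bp from them. The region 2L:20061125-20061564 lay 77 bp from lok, which encodes the fly Chk2 kinase of the DNA damage response, and 25 bp from barr, another condensin subunit, with its summit inside barr and not between the TSSs. Also shown are the promoter summits of Cdk1 and mei-41, with the highest signals outside the E2F family and the cyclins, and that of Rbf2, the only member summit with a DRE. Each sequence is the summit with the 50 bp on each side of it (dm6, RefSeq assembly), written 5′ to 3′ on the strand of the member gene, and capitals mark the DRE.
Mcm2 (3R:8264826-8264926, plus strand): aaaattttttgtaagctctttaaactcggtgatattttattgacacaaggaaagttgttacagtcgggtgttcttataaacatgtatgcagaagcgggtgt
Bub3 (3R:29675492-29675592, minus strand): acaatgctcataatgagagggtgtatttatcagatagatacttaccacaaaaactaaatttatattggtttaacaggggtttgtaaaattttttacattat
lok (2L:20061295-20061395, plus strand): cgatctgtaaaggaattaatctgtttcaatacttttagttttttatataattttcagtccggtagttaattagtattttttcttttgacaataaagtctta
Cdk1 (2L:10386452-10386552, minus strand): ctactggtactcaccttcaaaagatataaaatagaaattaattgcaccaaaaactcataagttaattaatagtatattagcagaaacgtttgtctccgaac
mei-41 (X:16391571-16391671, plus strand): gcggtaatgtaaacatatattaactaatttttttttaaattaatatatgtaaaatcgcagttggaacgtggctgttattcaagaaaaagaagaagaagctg
Rbf2 (3R:15965328-15965428, plus strand): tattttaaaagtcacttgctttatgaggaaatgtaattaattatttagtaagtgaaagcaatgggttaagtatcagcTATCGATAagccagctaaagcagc

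These windows were rich in A and T. Their GC content was 34.7% at Mcm2, 26.7% at Bub3, 23.8% at lok, 29.7% at Cdk1, 27.7% at mei-41 and 31.7% at Rbf2. Over all 27 member regions it ran from 21.8% at a promoter summit of E2f1 to 65.3% at an intronic summit of the same gene, with a median of 31.7%, and over all IDR regions the median was 34.7% with quartiles of 28.7% and 41.6%.

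Sharing of a promoter region with another coding gene was common among the members, as it was among coding genes in general. The 16 genes held 27 IDR regions, 17 of them with promoter summits, and 10 of the 17 (58.8%) also lay within 500 bp of the TSS of another coding gene. Of all 2423 pairs of a coding gene and an IDR promoter summit, 48.0% did. Every one of the 10 lay at a divergent pair, at 9 members, with 2 overlapping regions at aurA counted separately. Besides the pairs above, Cdk1 was paired with mRpS7, a mitochondrial ribosomal protein gene, at 400 bp between the TSSs, mei-41 with TH1, a subunit of the negative elongation factor, at 260 bp, and an internal TSS of dup with SRPK, a kinase of splicing factors, at 110 bp. Dp was paired with Fsn at 95 bp, Rbf2 with CG32856 at 95 bp, and aurA with CG3281 at 319 bp. In 6 of the 17 the summit was nearer to a TSS of another gene than to that of the member, as at Cdk1, where mRpS7 started 160 bp from the summit and Cdk1 itself 240 bp. A region near start sites of both genes cannot be assigned to one of them.

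**Figure D2:**
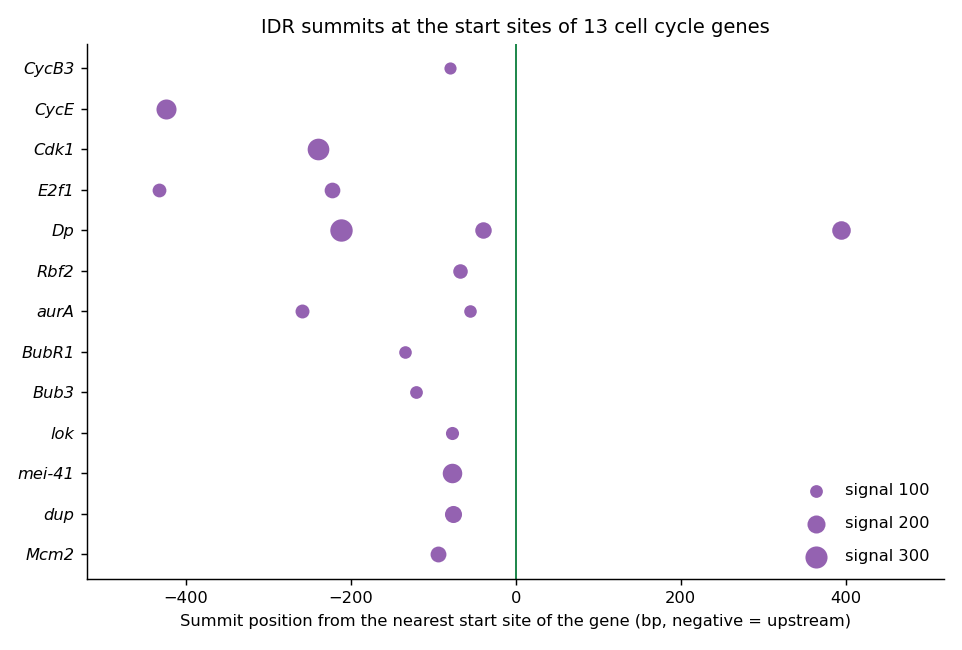
Position of the 17 IDR promoter summits relative to the nearest TSS of the member gene (x axis, bp, negative values upstream), with the area of a point proportional to its pooled signal. All but 1 of the summits, at Dp, lay upstream of the TSS.

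Promoter summits of the members lay upstream of the start site in 16 of 17 cases (94.1%), with a median position of -94 bp and a range from -433 to 395 bp. Over all coding genes 85.1% of IDR promoter summits were upstream, with a median of -135 bp. The 1 downstream summit was at Dp. Of the 10 regions outside the promoter window, 9 lay in introns and 1 in an exon outside the coding sequence, and none lay in a coding exon. Summits were inside the gene body in 16 of the 27 regions, some of them at internal start sites, as at CycE, E2f1, Dp and dup.

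Among the cyclins, 3 of 6 carried IDR regions. This count and those of the other roles below rest on few genes, and stand beside 19.2% of all coding genes. CycE, the partner of Cdk2 that starts DNA replication, had 2 regions, both upstream of an internal TSS that lies 1540 bp into the gene. The first, 2L:15746894-15747129, had a pooled signal of 247 (rank 760) with its summit 425 bp upstream of that TSS, and the second, 2L:15747160-15747368, a signal of 203 (rank 1110) at 649 bp. Both overlapped the same region in each replicate, with a signal of 109 (rank 1293) in replicate 1 and 135 (rank 614) in replicate 3. CycE ranked high in both replicates. CycB3, a mitotic cyclin, had a region, 3R:24870676-24871115, with its summit 80 bp upstream of its TSS, with a pooled signal of 91.1 (rank 3732), 64.7 in replicate 1 (rank 3196) and 30.1 in replicate 3 (rank 5501). CycG, an atypical cyclin, had an intronic region, 3R:31608141-31608580, 1454 bp downstream of its nearest TSS, with a pooled signal of 95.1 (rank 3514), 88.1 in replicate 1 (rank 1850) and 13.5 in replicate 3 (rank 19204). At CycG the region was strong in 1 replicate and weak in the other.

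The other cyclins carried weak regions or none. CycD, the partner of Cdk4, had its strongest pooled region at rank 4998 (signal 73.0), at -491 bp from the TSS, with strongest regions at ranks of 3431 in replicate 1 and 5138 in replicate 3. CycA, a mitotic cyclin, had an intronic region at rank 12413 (signal 35.99), a weaker promoter region at rank 26581, and none in replicate 3. CycB, also a mitotic cyclin, had no region in any of the 3 lists.

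Cdk1, the kinase that drives mitosis, had the strongest region among the kinases. Its promoter region 2L:10386421-10386691 had a pooled signal of 288 (rank 579), 186 in replicate 1 (rank 462) and 103 in replicate 3 (rank 984). It was among the top 1000 of both replicates. Cdk4, the partner of cyclin D, had an intronic region, 2R:16583985-16584160, 3282 bp downstream of its nearest TSS, with a pooled signal of 122 (rank 2457), 96.7 in replicate 1 (rank 1595) and 16.4 in replicate 3 (rank 13523). Cdk2, the partner of cyclin E, had only a weak promoter region at pooled rank 10380 (signal 41.4), absent from replicate 1 and at rank 9558 in replicate 3.

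The phosphatases, kinase inhibitors and activators of the anaphase promoting complex had no IDR region at any of 6 genes. The mitotic phosphatase gene stg had a region 3 bp from a TSS at pooled rank 5636 (signal 66.6). It ranked 2867 in replicate 1 (signal 69.0) and no region of stg was listed in replicate 3. The inhibitor gene dap, whose product binds the cyclin E kinase, had a region 47 bp downstream of its TSS at pooled rank 4149 (signal 84.2), just outside the IDR list, and at rank 2014 in replicate 1, while its strongest region in replicate 3 ranked 11728. Both genes stood higher in replicate 1. The Cdc20 homologue fzy went the other way, at pooled rank 6549 (signal 59.5), 22489 in replicate 1 and 3571 in replicate 3, and fzr, the Cdh1 homologue, had ranks of 8274 (signal 49.3), 7485 and 4361. The germline phosphatase gene twe was listed in replicate 3 alone (rank 5485), and Myt1, an inhibitory kinase of Cdk1, in no list.

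The E2F family held the member with the highest signal and the member with the most regions. Dp, the shared dimer partner of both E2F proteins, had 3 IDR regions on 2R. The strongest, 2R:13223241-13223529, had a pooled signal of 308 (rank 512), 128 in replicate 1 (rank 942) and 188 in replicate 3 (rank 306), and its summit lay 212 bp upstream of an internal TSS. The second, with a pooled signal of 212 (rank 1031), lay 395 bp downstream of that TSS and ranked 1231 and 1001 in replicates 1 and 3. The third (167, rank 1547) lay 40 bp upstream of the outer TSS, shared with Fsn, and ranked 2162 and 1534. The 3 regions of Dp were among the top 3869 of both replicates.

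E2f1, the activating E2F, had 6 IDR regions along 40568 bp and 27 regions of any rank in the pooled list. Of 13945 coding genes of any length, 33 (0.237%) had 6 or more IDR regions, and no share was taken among genes as long as E2f1. The 2 regions of E2f1 with the highest signal overlap each other and count separately. The strongest 2 regions of E2f1, 3R:21633076-21633515 and 3R:21633286-21633725, with pooled signals of 151 (rank 1799) and 117 (rank 2602), lay 223 and 433 bp upstream of an internal TSS and overlapped the same region in each replicate, at rank 1637 in replicate 1 and 5398 in replicate 3. The other 4 were intronic, with pooled signals from 89.7 to 94.9, close to the lowest of the list. One of them (rank 3524) was at rank 2429 in replicate 1 and absent from replicate 3, and another (rank 3806) was at rank 10847 in replicate 1 and 2344 in replicate 3. The region of pooled rank 3639 had rank 4703 in replicate 1 and 3363 in replicate 3, whereas for the one of rank 3667 these were 2457 and 13754. The replicates thus differed in which intronic regions of E2f1 they ranked high.

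Rbf2, a retinoblastoma family protein, had a promoter region, 3R:15965158-15965597, with a pooled signal of 130 (rank 2245) and a signal of 104 in replicate 3 (rank 969). No region of replicate 1 overlapped it, so of the replicates replicate 3 alone listed it. E2f2, the repressive E2F, had a promoter region at pooled rank 6355 (signal 60.7), with strongest regions at rank 9883 in replicate 1 and 3904 in replicate 3. Rbf, the other retinoblastoma protein, had a region in replicate 1 alone, at rank 11054.

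**Figure D3:**
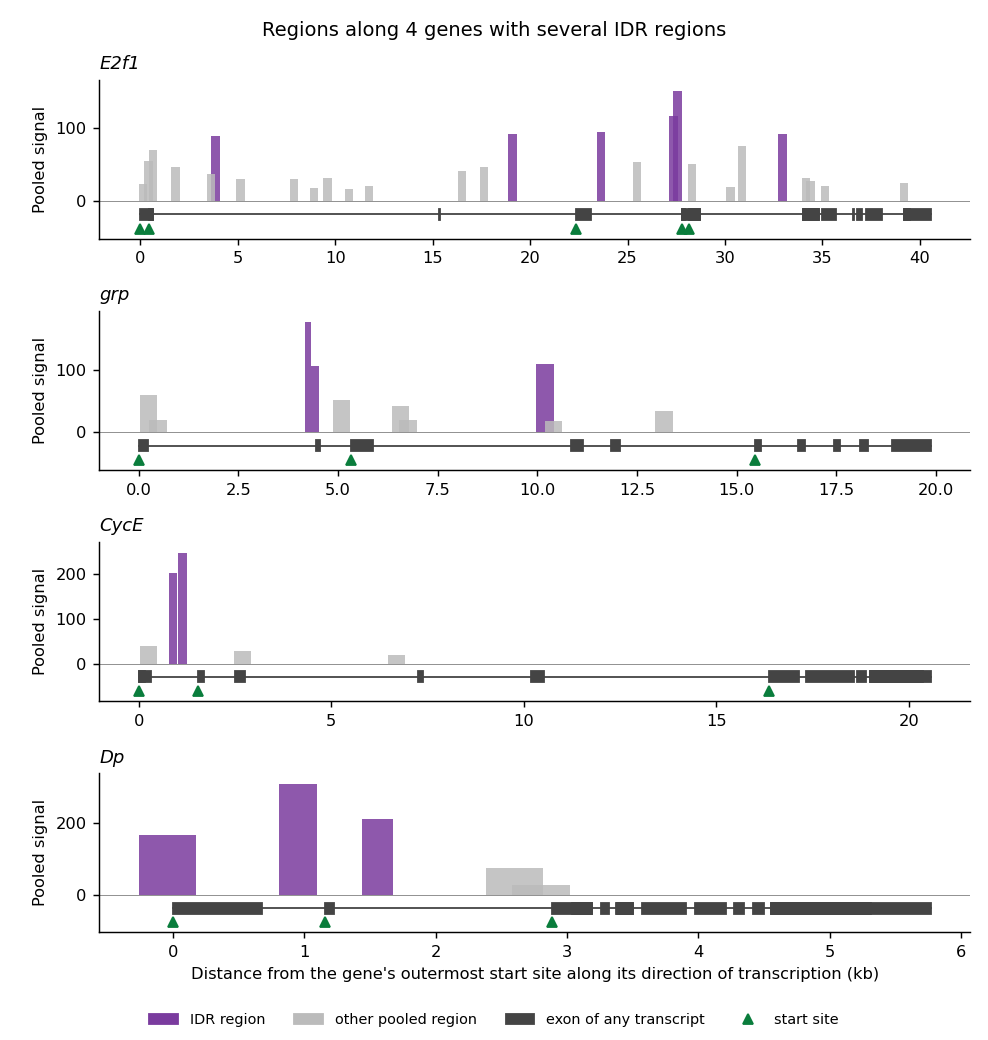
Regions of the pooled list along E2f1, grp, CycE and Dp, with the distance from the outermost TSS in kb on the x axis and the pooled signal on the y axis, IDR regions in purple and other pooled regions in grey, over exons and start sites. IDR regions lay within 500 bp of internal start sites of CycE, Dp and E2f1, and E2f1 also had 4 in introns.

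Of the mitotic kinases, aurA, which acts at centrosomes, had 2 overlapping IDR regions upstream of its TSS, 3R:11962645-11963084 and 3R:11962848-11963287, at 259 bp (pooled signal 119, rank 2526) and 56 bp (96.9, rank 3431). Both overlapped a region of rank 6016 in replicate 1 (signal 43.7) and one of rank 1433 in replicate 3 (83.7). The polo kinase gene had a promoter region at pooled rank 9228 (45.4), with strongest regions at 20755 in replicate 1 and 2924 in replicate 3. The gene aurB, whose kinase acts at centromeres and the spindle midzone, had one at pooled rank 4680 (76.7), with none in replicate 1 and rank 3365 in replicate 3. At each of these genes replicate 3 ranked the promoter higher than replicate 1 did.

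The spindle checkpoint genes delay anaphase until chromosomes are attached, and 2 of the 4 carried IDR regions. At BubR1 the region, 2R:5974300-5974739, lay 135 bp upstream of the TSS, with a pooled signal of 97.6 (rank 3387), 61.3 in replicate 1 (rank 3506) and 43.1 in replicate 3 (rank 3560). At Bub3 it had a pooled signal of 99.9 (rank 3267), 42.4 in replicate 1 (rank 6326) and 62.7 in replicate 3 (rank 2170). BubR1 had nearly the same rank in both replicates, and Bub3 stood higher in replicate 3. Bub1 had a promoter region at rank 2167 in replicate 3 (signal 62.7), and none in the pooled list or in replicate 1, and mad2 had none in any list.

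All 3 genes of the DNA damage checkpoint carried IDR regions, 2 of them at a TSS, where 19.2% of all coding genes carried one. In the longest length quartile, which holds grp and mei-41, that share was 39.3%. At mei-41, the fly ATR kinase, the region X:16391399-16391685 lay 77 bp upstream of the TSS, with a pooled signal of 234 (rank 846), 117 in replicate 1 (rank 1133) and 118 in replicate 3 (rank 772). The kinase gene grp, the fly Chk1 that acts below mei-41, had 3 regions. Of these, 2L:16684230-16684363 and 2L:16684385-16684575 lay 1050 and 847 bp upstream of an internal TSS (pooled signals 176 and 105, ranks 1431 and 3020) and overlapped the same region in each replicate, at ranks 2462 and 1071. The summit of the first was 332 bp from a TSS of CG31807, a gene on the other strand. The other region of grp, intronic and 4858 bp downstream of its nearest TSS, had a pooled signal of 110 (rank 2831) and ranked 2800 and 5572. At lok the pooled signal was 106 (rank 3011), with 40.5 in replicate 1 (rank 6773) and 74.5 in replicate 3 (rank 1701). The region of mei-41 was high in both replicates, and that of lok mainly in replicate 3.

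Replication genes with IDR regions were dup and Mcm2, 2 of 6. The region of dup, which encodes the Cdt1 protein that loads the helicase at origins, was 2R:15380603-15380779 and lay 76 bp upstream of an internal TSS, with a pooled signal of 179 (rank 1396), 107 in replicate 1 (rank 1340) and 76.2 in replicate 3 (rank 1650). At Mcm2 the pooled signal was 155 (rank 1741), with 52.7 in replicate 1 (rank 4474) and 98.2 in replicate 3 (rank 1072). Mcm5, another helicase subunit, had a promoter region at pooled rank 5249 (70.5), none in replicate 1, and rank 2310 in replicate 3. Orc1, of the origin recognition complex, had one at pooled rank 7286 (54.5), with ranks of 9485 and 11101. PCNA, the sliding clamp, had its only region at pooled rank 25167 (20.3). Orc2 had none in the pooled list, and regions of rank 23633 in replicate 1 and 23584 in replicate 3.

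**Figure D4:**
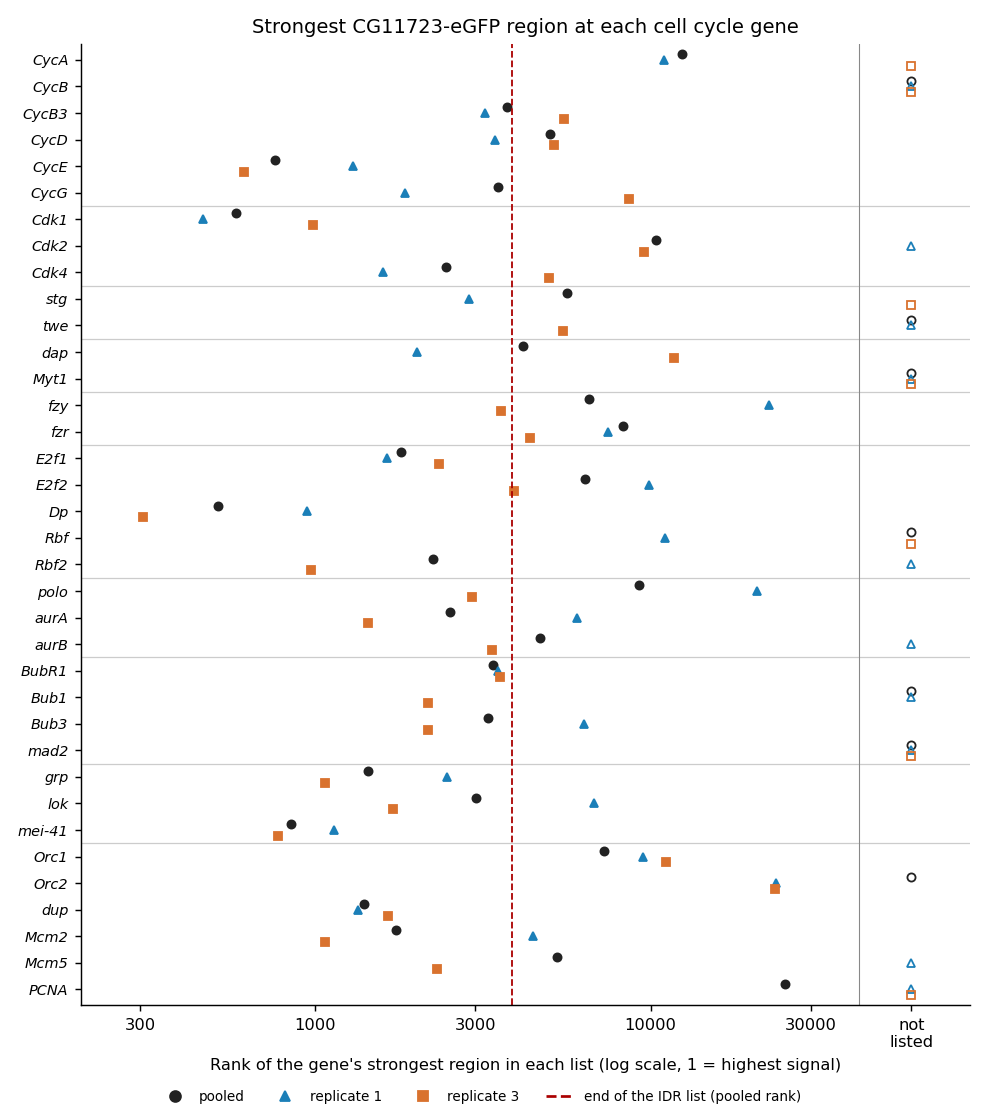
Rank of the strongest region of each of the 36 genes in the pooled list (circles), replicate 1 (triangles) and replicate 3 (squares), on a log axis, with genes grouped by role and open symbols where a gene has no region in that list. Circles left of the dashed line, at rank 3869, are the 16 genes with an IDR region; the strongest region of a replicate need not be the same as that of the pooled list.

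The members' regions stood in the lower part of the IDR list by signal. Their signals ran from 89.7 to 308, with a median of 119 and a median rank of 2526, against 144 and 1935 over the whole list, and 11 of the 27 were among its 1934 regions of highest signal. Nearest to the end of the list inside it were CycB3 (91.1), CycG (95.1) and BubR1 (97.6), and nearest outside it dap (84.2), aurB (76.7) and CycD (73.0), by the strongest pooled region of each gene.

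The replicates ranked the members differently, as they did many other IDR regions. Of the 27 regions, 25 overlapped a region in both replicate lists, as did 3613 of all 3869 IDR regions. For 11 (40.7%) the overlapping regions were among the top 3869 of both replicates, against 59.9% of all IDR regions. This comparison does not take into account that the members' regions stood lower in the IDR list. Overlapping regions at aurA and E2f1 count separately in it. Another 8 were among the top of replicate 1 alone and 8 of replicate 3 alone, as were 775 and 685 of all 3869 IDR regions. Taking the 3869 regions of highest signal of each replicate by itself, 14 members had a region in replicate 1 (38.9%, against 18.1% of coding genes) and 18 in replicate 3 (50%, against 21.9%). In both replicates there were 8 such genes, and all 8 carried IDR regions: CycE, Cdk1, E2f1, Dp, BubR1, grp, mei-41 and dup. The IDR list was itself derived in part from these replicate lists. A gene counted here need not have the same region in both. No IDR region of E2f1 was among the top 3869 of both replicates. In replicate 1 alone there were 6 (CycB3, CycD, CycG, Cdk4, stg and dap) and in replicate 3 alone 10 (fzy, Rbf2, polo, aurA, aurB, Bub1, Bub3, lok, Mcm2 and Mcm5). For genes in both replicates or in 1 alone, no share of all coding genes was taken, so these counts describe the members only. With 2 replicates of 1 group, the difference between the replicates was not tested.

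**Figure D5:**
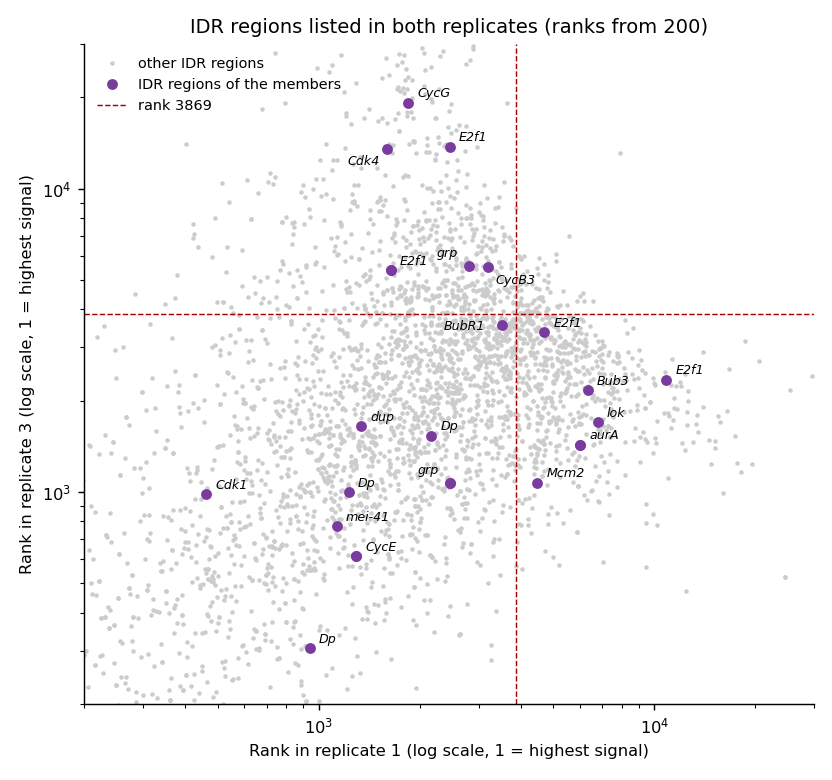
Rank in replicate 1 against rank in replicate 3 (log axes, 1 = highest signal) of IDR regions listed in both replicates, with the regions of the members in purple and named, and dashed lines at rank 3869. Regions of higher rank than the axes show are left out; the regions of aurA, Bub3, lok, Mcm2 and some of E2f1 lie past the line in replicate 1, and those of CycB3, CycG, Cdk4, 1 of grp and others of E2f1 past it in replicate 3.

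The DRE was found at the outermost start sites of members with and without IDR regions. It was searched as TATCGATA, on both strands, in the 300 bp from 250 bp before to 50 bp after the outermost TSS of each gene. It was present at 9 of 36 members (25%), against 9.36% of all coding genes. Of the 16 members with an IDR region 4 had one, and of the 20 without 5, which is 25% in each. These shares compare genes, not promoters with and without an IDR summit. At CycE, CycG, Cdk4, E2f1 and grp no IDR summit lay within 500 bp of the outermost TSS. The 4 members with both, Rbf2, BubR1, Bub3 and mei-41, all had an IDR summit within 500 bp of it. Of the 10 copies, 8 are shown with 20 bases on each side, on the strand of the gene and with the DRE in capitals, because they stand at genes with strong, weak and no regions.
Rbf2 (3R:15965385-15965432, plus strand): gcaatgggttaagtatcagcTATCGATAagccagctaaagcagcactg
Bub3 (3R:29675417-29675464, minus strand): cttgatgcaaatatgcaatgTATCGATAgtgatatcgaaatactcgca
mei-41 (X:16391659-16391706, plus strand): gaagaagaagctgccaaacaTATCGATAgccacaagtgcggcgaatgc
CycA (3L:11833562-11833609, minus strand): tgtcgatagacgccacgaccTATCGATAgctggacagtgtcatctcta
Cdk2 (3R:20735542-20735589, plus strand): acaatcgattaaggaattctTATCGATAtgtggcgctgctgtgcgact
mad2 (3L:5813121-5813168, minus strand): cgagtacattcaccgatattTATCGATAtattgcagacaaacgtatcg
Orc2 (3R:13964664-13964711, plus strand): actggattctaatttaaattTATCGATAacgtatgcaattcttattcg
Orc2 (3R:13964882-13964929, plus strand): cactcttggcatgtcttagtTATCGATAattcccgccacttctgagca

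Their first bases lay at -41 bp from the TSS at Rbf2, -23 at Bub3, -19 at mei-41, -11 at CycA, -61 at Cdk2 and -55 at mad2, and at -201 and 17 bp at Orc2. BubR1 and PCNA also held a copy each. Of all copies, 6 lay wholly inside a pooled promoter region of the gene: at Rbf2 (30 bp from the summit), Cdk2 (29 bp), CycA (10 bp), PCNA, Bub3 (102 bp) and BubR1. The regions at Cdk2, CycA and PCNA were weak, at pooled ranks of 10380, 26581 and 25167. No such count was made for DRE copies of all coding genes. The copy at mei-41 lay 61 bp from the summit and crossed the edge of the region, and mad2 and Orc2 had no pooled region. The core TCGATA, which is part of the DRE, was in 44.4% of member promoters and 27.7% of all.

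At the summits themselves the DRE and the E2F sites were rare. Within 50 bp of the 27 member summits the DRE was present at 1, that of Rbf2 (3.70%), against 1.76% of all IDR summits, and the core TCGATA at the same 1, against 6.41%. None of the E2F sites TTTCCCGC, TTTGGCGC and TTTCGCGC was present at a member summit, against 1.60% of all IDR summits, and in promoters they were at stg, Orc1 and Mcm2 (8.33%, against 4.84%). The string TTTGAA, the cell cycle homology region of vertebrate mitotic genes, was at 18.5% of member summits and 16.7% of all, and in 36.1% of member promoters and 40.7% of all. CACAGTG was at none, against 3.00%, and AACAGCTG at 2, one of E2f1 and that of dup (7.41%, against 1.47%). In promoters CACAGTG was at CycE and grp (5.56%, against 3.86%) and AACAGCTG at E2f1 (2.78%, against 7.61%). A match is a string of letters and not a binding site, and these counts were not tested.

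In a wider list of 152 other cell cycle genes, 36 (23.7%) carried an IDR region, against 19.2% of all coding genes, and of the 72 with a pooled region these were 50%, against 45.3%. By group the counts were 9 of 44 genes of the pre-replication complex and fork, 11 of 36 cyclins, kinases and regulators, 8 of 31 genes of the anaphase promoting complex, cohesin and condensin, and 8 of 41 of the kinetochore, spindle and centrosome. The 10 of highest signal were chif (626, with ranks of 80 in replicate 1 and 103 in replicate 3), the activating subunit of the Cdc7 kinase, aay (587), a phosphoserine phosphatase gene, the cohesin regulators pds5 (493) and Nipped-B (493), the cohesin subunit vtd (379), the centrosomal proteins cnn (319) and tacc (275), gammaTub23C (284, not listed in replicate 3), a gamma-tubulin, CycK (272) and mts (268), a catalytic subunit of protein phosphatase 2A. The first 6 of these stood above every one of the 36 members, whose highest signal was 308. Among the genes with an IDR region in this wider list, RPA1, barr and Cap-D2 share their region with a member.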

How the data were processed

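ChIP-seq of a CG11723-eGFP line was analysed from the dm6 region lists in narrowPeak format. Per the submitters' file notes, the authors called regions on each replicate and on both pooled, with a control, and derived the final list from these 3 lists by IDR. For alignment, peak calling and the IDR cut-off, programs and settings were not given in the sources used here. Signal, as deposited, is a score on a scale that is not stated. The deposited −log10 q values were capped, with 18 of the 27 member regions at the maximum of 3.79, and were not used to rank. The dm3 lists were not used here.

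Transcripts and genes were those of Ensembl release 115 (BDGP6.54), leaving out transposable elements, and sequence from the RefSeq Release 6 assembly. No region ended past its arm. Summits were counted from 1. Replicate regions were matched to IDR regions by an overlap of at least 1 bp, taking the one of highest signal, so that 2 pooled regions can share 1 match. Of 153 other cell cycle genes, 152 were found, 3 through RefSeq synonyms. The assignment was tested on simulated data. Python 3.11.15 and numpy 2.4.6 were used. No test of significance was run.

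The members and lists were chosen with earlier results of these data known. Every member is given, with its strongest pooled region or, where it has none, its replicate regions. Of the other genes the 10 of highest signal are named, and of neighbours the coding genes with a TSS within 500 bp of a promoter summit. Alternatives changed the TSS window, the position used, the overlap, the number of regions and the replicates. A wider sequence window was chosen after seeing the data.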

Additional observations from a re-analysis of the deposited data

How the results depend on the processing

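With the 1934 IDR regions of highest signal, 8 members had a region, 7 of them at a TSS, with 11 regions in all, and 11.9% of coding genes had one, while the other cell cycle genes stayed within 1.5 times of their count (24). With a 50% reciprocal overlap, the strongest IDR region of 9 of the 16 members matched a region in both replicate lists, against 15 with 1 bp. With 100 bp instead of 50 bp on each side of the summit the DRE core was at 3 member summits and not 1. The share of the members was then 11.1%, against 12.2% of all IDR summits, where with 50 bp these were 3.70% and 6.41%. TSS windows of 200 and 1000 bp, the midpoint of a region, and any overlap of at least 1 bp moved no count of genes or regions, and not the share of coding genes, by more than 1.5 times. With each replicate left out, the members with a region numbered 14 to 18, those at a TSS 11 to 15, their regions 20 to 25, and the other cell cycle genes 28 to 46, and the coding genes stood at 18.1% to 21.9%. Of the 16 members, 13 were also called from replicate 3 alone and 11 from replicate 1 alone. Matching shares of all genes or regions were not taken for these counts, nor for those above at a TSS or by reciprocal overlap. Read numbers are not in the lists, so what depth limits cannot be said.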

Other observations

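The regions of the members that were among the top 3869 of only 1 replicate differed in where they lay. Of the 8 in replicate 3 alone, 6 were within 500 bp of a TSS of any gene (75%), at aurA, Bub3, lok, Mcm2 and Rbf2, and the GC content within 50 bp of their summits had a median of 27.2% (23.8 to 34.7%). Of the 8 in replicate 1 alone, 3 were (37.5%), and the median GC content was 34.2% (21.8 to 65.3%). Over all IDR regions the shares were 54.5% of 685 regions for replicate 3 alone and 42.2% of 775 for replicate 1 alone, with median GC contents of 33.7% and 41.6%. The members are few, overlapping regions at aurA and E2f1 count separately, and the part of base composition or of the libraries in these differences was not tested.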
